A study of Mus musculus with 6 samples.

Results

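A set of 10 mouse genes is described here, each known to be imprinted, in epiblast stem cells cultured without or with Activin A. They are Mest, Copg2, Peg12, Ndn, Snrpn, Grb10, Nnat, Plagl1, Cdkn1c and Impact, 10 of the 52609 annotated genes in the files, and they were taken from a list by symbol, with all transcripts of a gene summed. All 10 passed the filter on low counts and were tested. Epiblast stem cells are cultured from the epiblast of the early embryo and are pluripotent in the primed state. Of the 6 libraries, made with a stranded mRNA kit, 3 came from cells without Activin A and 3 from cells with Activin A at 20 ng/mL. FGF2 at 10 ng/mL, the Wnt secretion inhibitor IWP2 at 5 µM and SB431542 at 2 µM were present in both groups, and SB431542 blocks the type I receptors through which Activin signals. The cells grew on mitotically inactive mouse embryonic fibroblasts, so RNA of these feeder cells may be part of each library. The treatment protocol, which lists Activin A, is worded alike for all samples, and the groups follow the titles. A design note speaks of 2 lines while the sample labels differ in Activin A alone, so a difference of line between the groups cannot be told apart from the treatment.

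In an imprinted gene the allele from one parent is active and that from the other is silent, because a control region carries DNA methylation set in the germ cells of a single parent. Zinc finger proteins such as ZFP57, with TRIM28 and the methyltransferase DNMT1, keep that mark through cell division. Many imprinted genes act on fetal growth, placenta and brain, and several are placed together in domains under a shared control region. The counts used here do not separate the parental alleles, so a level is the sum over both.

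The libraries held 13567995 to 14992042 estimated reads without Activin A and 9946521 to 16350923 with it. Of 15448 genes tested with edgeR, 4505 (29.2%) passed an adjusted p of 0.05, 2155 higher and 2350 lower without Activin A. After removal of a trend with GC content and length from every library, 4015 were higher and 2470 lower. The library with Activin A replicate 3 was the shallowest, and in 1 library of the group without Activin A (replicate 1) the label for growth factors lists Activin A although the title does not. All 7 listed epiblast stem cell markers were tested, of which 1 was higher (Sox2) and 5 were lower (85.7% called, against 29.2% of all genes). Their summed level was 578 to 596 CPM (TMM-normalized counts scaled to library size) without Activin A and 1137 to 1172 CPM with it. The labels do not name separate cultures, so the p-values measure the spread between these libraries, which may be technical.

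Of the 10 imprinted genes, 4 were higher without Activin A (Mest, Peg12, Ndn and Plagl1), 3 were lower (Snrpn, Nnat and Impact) and 3 did not pass (Copg2, Grb10 and Cdkn1c). Over all genes tested the test called 29.2%, with 14.0% higher and 15.2% lower. The groups did not overlap in CPM for 8 of the 10 genes, against 42.9% of all genes tested. Because the 10 genes were chosen with earlier results of these data known, these shares say nothing about imprinted genes as a class. The median log2 fold change over the 10 genes was 0.05, against 0.0012 over all genes, so the genes did not share a direction. By the allele known to be expressed in mouse, the 7 genes that passed are the 7 paternally expressed ones and the 3 that did not pass are the 3 maternally expressed ones, a description made after the values were seen and with no test. That split was not kept under every alternative: of 18, Ndn was called in 15 and Impact in 8, while Cdkn1c was called in 2 and Grb10 in 1. Peg12 and Plagl1 had larger changes than 98.3% and 96.8% of the tested genes by size of log2 fold change, and Mest and Nnat larger changes than 95.3% and 93.1%. In bulk RNA, a change in the number of cells that express a gene and a change in RNA per cell cannot be told apart.

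**Figure D1:**
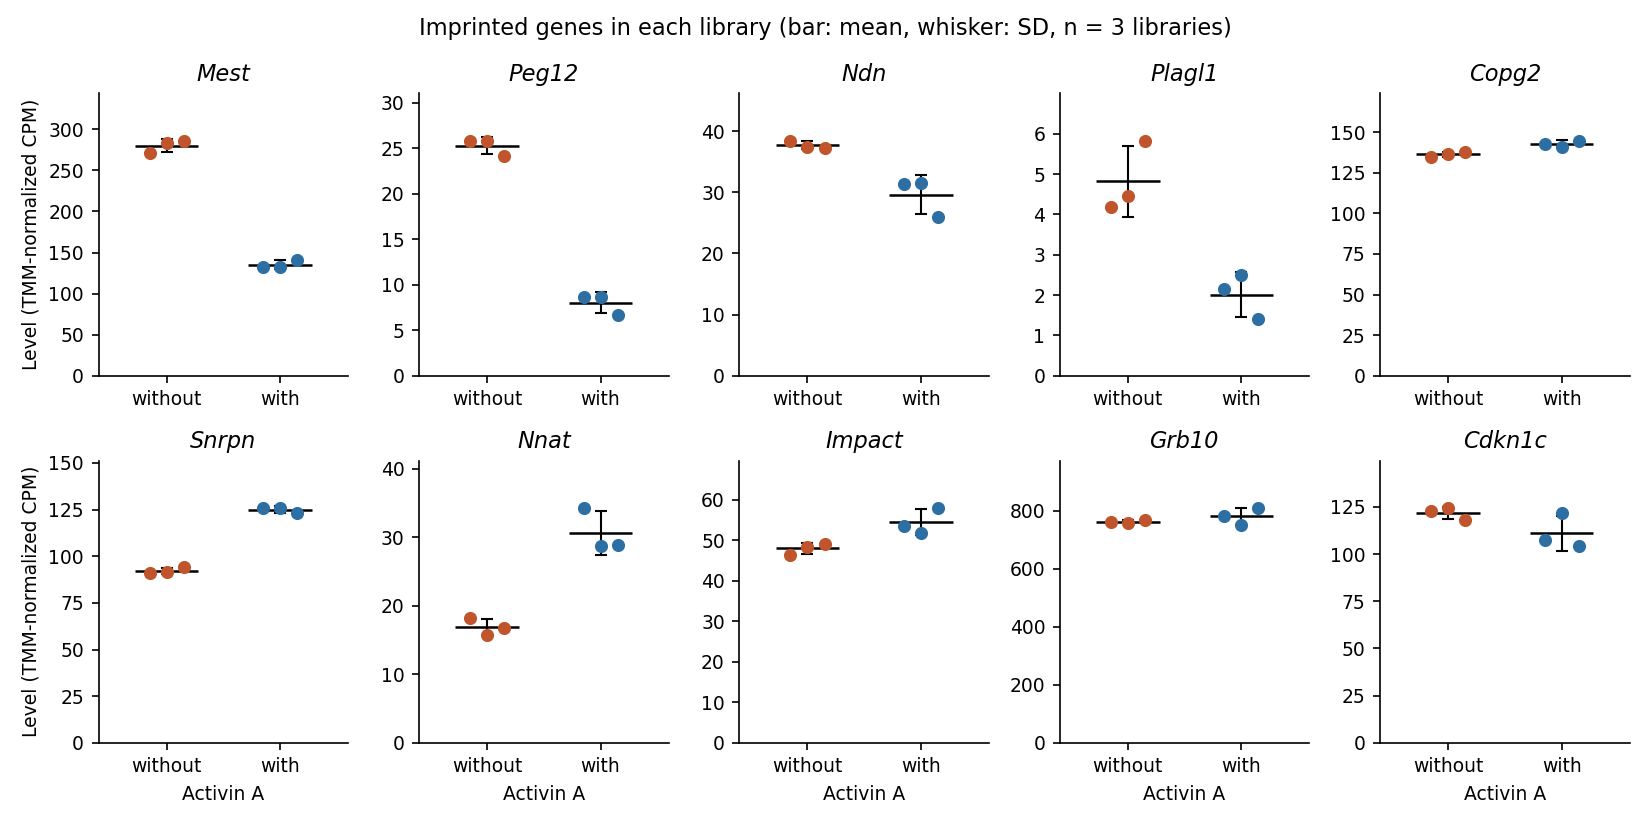
Level of each imprinted gene in TMM-normalized CPM (vertical axis, linear from 0) in the 3 libraries without and the 3 with Activin A. Points are libraries, bars are means and whiskers are SD; Mest stands at 271 to 286 CPM without and 132 to 141 CPM with Activin A, while the groups of Grb10 and Cdkn1c overlap.

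Mest, also called Peg1, encodes a membrane enzyme of the alpha/beta hydrolase family that is abundant in embryonic mesoderm and is transcribed from the paternal allele. It lies on chromosome 6 of GRCm38 at 30723547 to 30748465 on the plus strand (ENSMUSG00000051855.15). Its level was 271, 283 and 286 CPM in the libraries without Activin A, against 132, 132 and 141 CPM in those with Activin A. Every library without Activin A was above every library with it. The means were 280 ± 8.20 CPM without and 135 ± 5.32 CPM with Activin A (SD, n = 3 each), which is 2.07-fold higher (log2 fold change 1.05, standard error 0.05, edgeR adjusted p = 1.09e-09). Without the library whose label is in conflict, the log2 fold change was 1.08, and without that library and the shallowest one it was 1.10.

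Most Mest reads fell on transcripts from 2 start sites. Their promoter windows are shown because the log2 fold changes of the main transcripts of these starts, Mest-210 and Mest-211, were unlike. The evidence for that contrast is limited, as given below. Each window runs from 250 bases before to 50 bases after a RefSeq start on GRCm38.p6, on the gene's own strand, 5′ to 3′. Capitals mark TGCCGC or its reverse complement, the motif that ZFP57 binds when it is methylated. The upstream window is chr6:30733256-30733555 and the downstream one chr6:30737800-30738099, both on the plus strand.
Mest upstream start: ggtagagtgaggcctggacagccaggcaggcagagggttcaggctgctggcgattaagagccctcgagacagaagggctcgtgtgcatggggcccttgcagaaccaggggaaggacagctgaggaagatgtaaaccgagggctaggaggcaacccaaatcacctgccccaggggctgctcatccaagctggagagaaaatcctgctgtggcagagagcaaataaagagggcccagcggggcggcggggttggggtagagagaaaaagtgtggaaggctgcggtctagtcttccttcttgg
Mest downstream start: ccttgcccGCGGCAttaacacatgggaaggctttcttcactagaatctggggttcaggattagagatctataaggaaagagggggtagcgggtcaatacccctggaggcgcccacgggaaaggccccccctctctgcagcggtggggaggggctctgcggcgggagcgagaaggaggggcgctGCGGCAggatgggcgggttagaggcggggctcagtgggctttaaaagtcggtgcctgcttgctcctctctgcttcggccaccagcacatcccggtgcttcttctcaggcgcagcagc

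The downstream window held 17 CpG dinucleotides and 2 copies of the motif, and the upstream window held 8 CpG dinucleotides and 0 copies. Over the 32851 promoter windows of the RefSeq table the median was 7 CpG dinucleotides, and 11.6% held the motif on either strand. Of the 14 windows of the imprinted genes 7 held it, among them 2 overlapping windows of Mest. The windows of Copg2 and of the upstream start of Grb10, genes that did not pass, held it too. The motif contains a CpG, and the windows with it, all but that of Snrpn, held 17 to 45 CpG dinucleotides. Its share among windows of like CpG content was not tested. The FOXH1 motif AATCCACA was in 0.855% and the SMAD palindrome GTCTAGAC in 0.213% of all windows, on either strand. Neither was in the 14 windows of the 8 imprinted genes that have one in the table. With motifs so rare, most sets of 14 windows would hold neither, so nothing is drawn from their absence.

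Mest-211, which begins at the downstream start at 30738050, had 2261, 2114 and 2185 estimated reads without Activin A, against 990, 866 and 603 with it. Its log2 fold change was 1.31 with a standard error of 0.07, in a fit over all 39997 transcripts that passed the count filter, of which 2.71% were called (edgeR adjusted p = 0.00103). Mest-210, which begins at the upstream start at 30733506, had 1262, 1841 and 1475 reads without and 994, 854 and 737 reads with Activin A. Its log2 fold change of 0.69 did not pass (standard error 0.14, edgeR adjusted p = 0.0726). Mest-202, which begins beside the downstream start at 30738053, held fewer reads. Its log2 fold change of 0.86 did not pass either (standard error 0.43, edgeR adjusted p = 0.441). Of the reads of Mest-210 and Mest-211, Mest-210 took 40.9% ± 5.38 without and 51.6% ± 2.95 with Activin A (SD, n = 3 each). The shares did not overlap, at 35.8 to 46.5% and 49.7 to 55.0%, and an exact two-sided permutation test gave p = 0.1, the smallest that 3 against 3 libraries allow. The division of reads between transcripts of a gene is an estimate whose own error is not in the files.

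Copg2 encodes a gamma subunit of the COPI coat of Golgi vesicles and is known in mouse for expression from the maternal allele in some tissues. It runs on the minus strand of chromosome 6 from 30747554 to 30896794 (ENSMUSG00000025607.15), and 912 of its exon bases overlap the end of Mest. Its level was 135, 137 and 138 CPM without Activin A and 143, 141 and 145 CPM with it. The groups did not overlap, but the difference was small and did not pass, with a log2 fold change of -0.07 and a standard error of 0.05 (edgeR adjusted p = 0.319). Of the distinct 31-base words of Mest, 21.96% are also in Copg2 as reverse complement and 0 are in another gene in the same sense, and whether strand was used in counting is not stated in any source at hand. Nearly all reads of both genes were on transcripts that reach into the shared stretch. Transcripts of Mest that end before it held 104, 56.5 and 64.1 reads without and 33.4, 44.8 and 6.63 reads with Activin A, a log2 fold change of 1.33 that did not pass (edgeR adjusted p = 0.0756). Copg1, the non-imprinted paralog of Copg2, had 209 ± 4.59 CPM without and 189 ± 8.05 CPM with Activin A (SD, n = 3 each) and was called higher by 0.14 on the log2 scale (edgeR adjusted p = 0.0442). That call was lost in 11 of 18 alternatives, among them leaving out any library without Activin A (adjusted p = 0.0921, 0.132 and 0.175) or replicate 1 with it (0.0689), DESeq2 (0.0562), no filter (0.0599), upper-quartile scaling (0.117), limma-trend (0.838 at both pseudocounts) and the length offset (0.841).

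**Figure D2:**
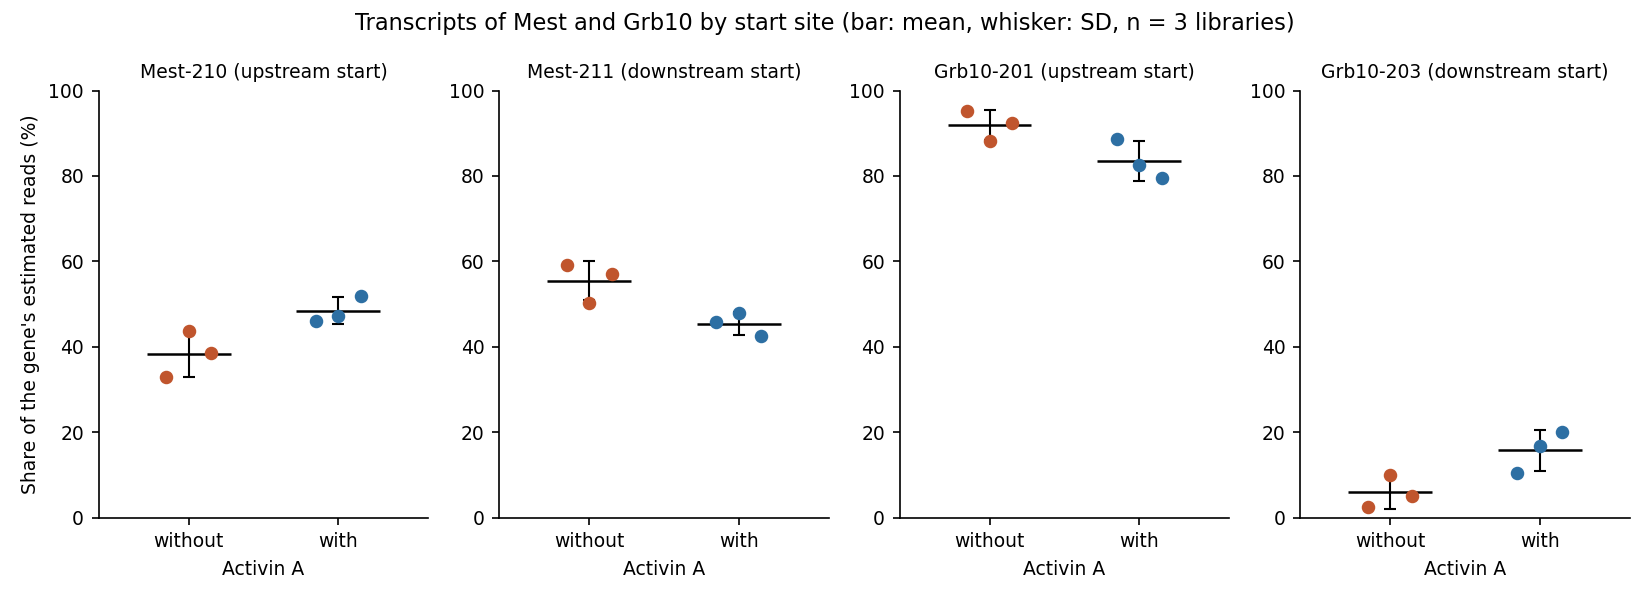
Share of each gene's estimated reads (vertical axis, percent) on the 2 main transcripts of Mest and of Grb10, by library; points are libraries, bars are means and whiskers are SD over 3 libraries. Mest-211 took the larger share without Activin A and Mest-210 and Grb10-203 with it, with no overlap between the groups, while for Grb10-201 the lowest library without (88.1%) was below the highest with Activin A (88.6%).

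Peg12, Ndn and Snrpn lie in the imprinted domain of chromosome 7 that corresponds to the human Prader-Willi region, and all are known for transcription from the paternal allele. Of these 3 genes, 2 were higher and 1 was lower without Activin A. Peg12, also called Frat3, is a single-exon gene of the FRAT family, whose proteins bind the kinase GSK3. It lies at 62461871 to 62464510 on the minus strand (ENSMUSG00000070526.2). Peg12 had 25.8, 25.9 and 24.2 CPM without Activin A, against 8.68, 8.71 and 6.68 CPM with it. The 3 libraries without Activin A lay close together and far above the others. The means were 25.3 ± 0.931 and 8.02 ± 1.16 CPM (SD, n = 3 each), 3.10-fold higher, with a log2 fold change of 1.63 and a standard error of 0.10 (edgeR adjusted p = 1.41e-08). Without both doubted libraries the log2 fold change was 1.52. The paralogs Frat1 and Frat2, which are not imprinted, did not pass. Frat1 had 1.13 ± 0.256 CPM without and 1.46 ± 0.199 CPM with Activin A, and Frat2 had 2.61 ± 0.595 and 2.41 ± 0.133 CPM (SD, n = 3 each; edgeR adjusted p = 0.345 and 0.714). Of the 31-base words of Peg12, 2.26% also occur in other genes, chiefly Frat1.

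Ndn encodes necdin, a protein of the MAGE family that holds neurons and other cells out of division. It lies at 62346569 to 62350262 on the plus strand of chromosome 7 (ENSMUSG00000033585.5). Ndn had 38.5, 37.4 and 37.3 CPM without Activin A, against 31.4, 31.5 and 26.0 CPM with it. The groups did not overlap, and the lowest library was the shallowest one, with Activin A replicate 3. The gene was 1.26-fold higher, with a log2 fold change of 0.34 and a standard error of 0.08 (edgeR adjusted p = 0.00374). Without both doubted libraries the log2 fold change was 0.24. The call was lost with limma-trend on log2(TPM + 1) and log2(TPM + 0.1) (adjusted p = 0.0581 and 0.0597) and with a transcript length offset (adjusted p = 0.0659).

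Snrpn encodes SmN, a core protein of the spliceosome that stands in for SmB in brain. It lies at 59982495 to 60140219 on the minus strand of chromosome 7 (ENSMUSG00000102252.5). Snrpn had 91.0, 91.6 and 94.0 CPM without Activin A, against 126, 126 and 123 CPM with it. The spread within each group was small beside the gap between them. Snrpn was 1.36-fold lower, with a log2 fold change of -0.44 and a standard error of 0.05 (edgeR adjusted p = 9.18e-06). Of the 31-base words of Snrpn, 28.6% also occur in other genes, chiefly Gm38393, and exons are shared with Snurf, the upstream reading frame of the same transcript, so the split of reads among them is uncertain. With Snrpn, Snurf and Gm38393 summed as 1 gene the log2 fold change was -0.38 (standard error 0.05, edgeR adjusted p = 6.68e-05). Snurf alone had 19.8 ± 2.33 CPM without and 24.7 ± 4.01 CPM with Activin A (SD, n = 3 each), with overlapping groups. Its call (edgeR adjusted p = 0.0413) was lost on leaving out any 1 library other than with Activin A replicate 3, at adjusted p-values of 0.0764, 0.190 and 0.0503 when replicate 1, 2 or 3 of the group without Activin A was left out, and 0.225 and 0.125 for replicates 1 and 2 with Activin A. The paralog Snrpb, which encodes SmB, had 231 ± 7.70 CPM without and 225 ± 21.9 CPM with Activin A (SD, n = 3 each; not passed, edgeR adjusted p = 0.715).

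The promoter windows of Peg12 and Snrpn are shown because the genes lie in the same domain and moved in opposite directions. The Peg12 window is chr7:62464461-62464760 and the Snrpn window nearest to Snrpn-201 is chr7:60005150-60005449, both on the minus strand. Snrpn-201 begins at 60005111, outside that window, while Peg12-201 begins at 62464510, inside its own. Capitals again mark the ZFP57 motif on either strand.
Peg12: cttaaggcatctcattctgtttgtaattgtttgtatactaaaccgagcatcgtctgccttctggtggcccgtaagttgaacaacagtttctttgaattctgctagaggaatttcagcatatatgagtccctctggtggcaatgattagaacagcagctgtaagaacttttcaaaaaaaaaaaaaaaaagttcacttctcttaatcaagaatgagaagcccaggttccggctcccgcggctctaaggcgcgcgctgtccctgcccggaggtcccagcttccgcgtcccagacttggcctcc
Snrpn: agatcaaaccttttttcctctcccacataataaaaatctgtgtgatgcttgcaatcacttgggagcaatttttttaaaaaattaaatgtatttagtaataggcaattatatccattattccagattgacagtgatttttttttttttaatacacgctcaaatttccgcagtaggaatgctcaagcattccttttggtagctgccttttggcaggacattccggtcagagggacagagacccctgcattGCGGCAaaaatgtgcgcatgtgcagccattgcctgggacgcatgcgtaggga

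The Snrpn window held 7 CpG dinucleotides and 1 copy of the motif, and the Peg12 window held 12 CpG dinucleotides and 0 copies. Snrpn-201 carried 97.9% ± 0.446 of the gene's reads without and 96.4% ± 2.67 with Activin A (SD, n = 3 each). Its other transcript, which begins far upstream at 60140219, held 21.8 to 31.1 reads without and 20.8 to 78.2 reads with Activin A. As a single transcript Snrpn-201 was called lower by a log2 fold change of -0.45 (edgeR adjusted p = 0.0128). That call was lost on leaving out any library without Activin A (adjusted p = 0.0921, 0.0856 and 0.0823) or replicate 1 or 2 with Activin A (0.0626 and 0.0594).

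Nnat encodes neuronatin, a small membrane protein of the endoplasmic reticulum in neurons and endocrine cells, and is transcribed from the paternal allele. It lies on chromosome 2 at 157560078 to 157562522 on the plus strand (ENSMUSG00000067786.16), inside an intron of Blcap, which runs on the other strand. Nnat had 18.2, 15.8 and 16.7 CPM without Activin A, against 34.3, 28.8 and 28.9 CPM with it. The highest library without Activin A was well below the lowest with it. Nnat was 1.83-fold lower, with a log2 fold change of -0.87 and a standard error of 0.09 (edgeR adjusted p = 4.36e-06). Blcap, its host gene, had 34.4 ± 1.26 CPM without and 34.5 ± 0.518 CPM with Activin A (SD, n = 3 each; edgeR adjusted p = 0.965). The Nnat window, chr2:157559828-157560127 on the plus strand, is shown for comparison with those of the same class above, and held 17 CpG dinucleotides and 1 copy of the ZFP57 motif.
Nnat: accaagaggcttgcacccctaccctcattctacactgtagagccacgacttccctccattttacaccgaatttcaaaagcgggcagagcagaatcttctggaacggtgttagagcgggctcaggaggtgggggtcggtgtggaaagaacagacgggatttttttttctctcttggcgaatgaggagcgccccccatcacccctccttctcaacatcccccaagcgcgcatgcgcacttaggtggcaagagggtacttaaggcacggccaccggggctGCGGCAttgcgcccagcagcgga

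Nnat-202 carried 78.5% ± 1.97 of the reads of Nnat without and 84.2% ± 4.63 with Activin A (SD, n = 3 each). Its log2 fold change of -0.99 passed over all transcripts (standard error 0.14, edgeR adjusted p = 0.0251). That call was lost without replicates 1, 2 and 3 of the group without Activin A (adjusted p = 0.0921, 0.117 and 0.120) and without replicates 1 and 2 of the other (0.0789 and 0.0859).

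Plagl1, Cdkn1c and Grb10 are regulators of growth. Plagl1, or Zac1, encodes a zinc finger factor that restrains proliferation and is known in mouse as a regulator of other imprinted genes, and the paternal allele is active. It lies on chromosome 10 at 13060504 to 13131694 on the plus strand (ENSMUSG00000019817.18). Plagl1 had 4.18, 4.45 and 5.83 CPM without Activin A, against 2.14, 2.49 and 1.40 CPM with it. Those levels rest on 59 to 78 reads without and 14 to 35 reads with Activin A, so the size of the fold is less certain than for Mest. Plagl1 was 2.33-fold higher, with a log2 fold change of 1.22 and a standard error of 0.21 (edgeR adjusted p = 0.000533). It was called in all 18 alternative fits that gave it a value, with log2 fold changes of 0.67 to 1.80. Of its relatives, Plagl2 was 1.35-fold higher, at 31.1 ± 1.73 and 23.2 ± 1.10 CPM (SD, n = 3 each; edgeR adjusted p = 0.000475), a call lost with limma-trend (0.0880 and 0.0907). Plag1 was 1.25-fold lower, at 20.4 ± 2.12 and 25.4 ± 2.03 CPM (edgeR adjusted p = 0.0168), and lost its call without the library without Activin A replicate 2 (adjusted p = 0.109) or with Activin A replicate 1 (0.0771), and with DESeq2 (0.0709) and limma-trend (0.119 and 0.120).

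Cdkn1c encodes p57KIP2, an inhibitor of cyclin-dependent kinases, and is expressed from the maternal allele. It lies on chromosome 7 at 143458339 to 143461050 on the minus strand (ENSMUSG00000037664.13). Cdkn1c had 123, 125 and 118 CPM without Activin A, against 108, 122 and 104 CPM with it. The groups overlapped through the library with Activin A replicate 2. Its log2 fold change of 0.13 did not pass (standard error 0.06, edgeR adjusted p = 0.125), but passed without that library (log2 fold change 0.20, adjusted p = 0.0168) and after removal of the GC and length trend (0.25, adjusted p = 2.24e-05). The non-imprinted relatives Cdkn1a and Cdkn1b, which encode p21 and p27, had 89.9 ± 1.81 and 96.1 ± 7.59 CPM, and 51.9 ± 3.14 and 56.7 ± 5.40 CPM, without and with Activin A, neither of which passed (edgeR adjusted p = 0.256 and 0.232).

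Grb10 encodes an adaptor that binds the insulin and IGF1 receptors and restrains growth. In mouse the maternal allele is active in most tissues and the paternal allele, from downstream starts, in neurons. Grb10 lies on chromosome 11 at 11930508 to 12038683 on the minus strand (ENSMUSG00000020176.17), and had the highest level of the 10 genes. It had 760, 758 and 769 CPM without Activin A and 780, 751 and 810 CPM with it. The groups overlapped, and the log2 fold change of -0.03 did not pass (standard error 0.05, edgeR adjusted p = 0.644). Per transcript length the comparison ran the other way, with 132 ± 10.5 TPM without and 106 ± 9.30 TPM with Activin A (SD, n = 3 each), and a transcript length offset gave a log2 fold change of 0.30 (edgeR adjusted p = 0.0396). Over the 4 transcripts of at least 1000 bases, a limit chosen after the values were seen, the TPM was 99.1 ± 3.30 without and 102 ± 10.4 with Activin A. The short transcripts Grb10-204 (479 bases) and Grb10-207 (430 bases) held 79.6 to 117 and 4.95 to 79.6 reads without, and 0 to 32.7 and 3.30 to 8.50 reads with Activin A.

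Grb10-201, from the upstream start at 12037401, held most reads of Grb10, and Grb10-203, from the start at 12027971, most of the others. Of this pair, Grb10-201 took 93.9% ± 3.87 of the reads without and 84.1% ± 4.83 with Activin A (SD, n = 3 each), and an exact two-sided permutation test gave p = 0.1, again the smallest possible. The groups nearly met, at 89.7 to 97.3% and 79.9 to 89.4%, and overlapped when the share was taken of all Grb10 reads. Grb10-203 had 283, 1137 and 519 reads without Activin A and 1341, 1731 and 1623 reads with it, and its log2 fold change of -1.47 did not pass over all transcripts (standard error 0.52, edgeR adjusted p = 0.260). Of the related adaptors, Grb7 was 1.36-fold lower, at 47.1 ± 0.981 CPM without and 63.5 ± 6.60 CPM with Activin A (edgeR adjusted p = 0.000304), a call lost with limma-trend (0.185 at both pseudocounts) and with the transcript length offset (0.115). The receptor genes Insr and Igf1r had 45.6 ± 1.32 and 48.4 ± 2.94 CPM, and 128 ± 0.870 and 124 ± 7.12 CPM, without and with Activin A, neither of which passed (edgeR adjusted p = 0.371 and 0.550).

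Impact encodes a protein that binds GCN1 and so limits the activation of the kinase GCN2 on amino acid shortage. It lies on chromosome 18 (ENSMUSG00000024423.6), the paternal allele is active, and 1 of its 9 annotated transcripts is in the files used here, the others being not analysed here. Impact had 46.5, 48.4 and 49.1 CPM without Activin A, against 53.5, 51.8 and 58.1 CPM with it. The groups did not overlap but lay close together. The gene was 1.13-fold lower, with a log2 fold change of -0.18 and a standard error of 0.06 (edgeR adjusted p = 0.0415). That call was lost in 10 of 18 alternatives, among them DESeq2 (adjusted p = 0.156) and the removal of replicate 1, 2 or 3 of the group without Activin A (0.173, 0.114 and 0.0917), of replicate 1 with Activin A (0.0802) and of both doubted libraries (0.132). Its partner genes Gcn1l1, which encodes GCN1, and Eif2ak4, which encodes GCN2, were called higher, at 256 ± 2.27 and 212 ± 13.4 CPM, and 58.4 ± 1.43 and 51.8 ± 1.53 CPM, without and with Activin A (SD, n = 3 each; edgeR adjusted p = 0.00124 and 0.0359). The call of Eif2ak4 was lost in 11 of 18 alternatives, among them DESeq2 (adjusted p = 0.140), no filter (0.0527), upper-quartile scaling (0.0854) and the removal of replicate 1, 2 or 3 without Activin A (0.0786, 0.0972 and 0.145) or replicate 1 with it (0.0754). That of Gcn1l1 was lost with limma-trend (0.0902 and 0.0870).

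**Figure D3:**
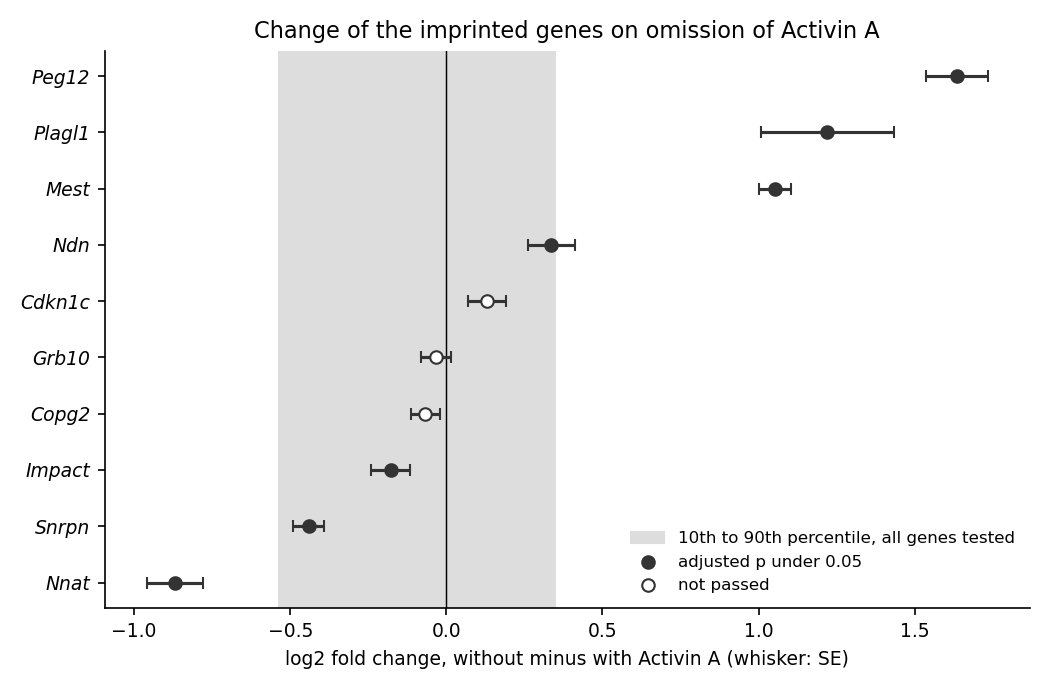
Log2 fold change of each imprinted gene, without minus with Activin A (horizontal axis), with its standard error as whisker; filled points passed the edgeR threshold of 0.05. The grey band is the 10th to 90th percentile of all genes tested, from -0.54 to 0.35, and Peg12, Plagl1, Mest and Nnat lie outside it.

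Levels are compared between genes in TPM, which is scaled by transcript length. Without Activin A the order was Grb10 at 132 ± 10.5 TPM, Mest at 93.0 ± 1.504, Cdkn1c at 91.9 ± 5.58, Copg2 at 36.3 ± 0.610, Snrpn at 34.4 ± 0.951, Nnat at 11.2 ± 0.634, Impact at 9.49 ± 0.418, Ndn at 6.89 ± 0.168, Peg12 at 6.66 ± 0.373 and Plagl1 at 1.10 ± 0.508 TPM (SD, n = 3). Summed over all transcripts, Mest and Cdkn1c, and Ndn and Peg12, did not differ beyond their spread. With Activin A the order was Grb10 at 106 ± 9.30 TPM, Cdkn1c at 77.6 ± 7.995, Snrpn at 46.1 ± 2.14, Mest at 43.5 ± 1.13, Copg2 at 31.5 ± 2.82, Nnat at 22.9 ± 2.01, Impact at 10.7 ± 1.30, Ndn at 5.33 ± 0.280, Peg12 at 2.08 ± 0.193 and Plagl1 at 0.297 ± 0.0995 TPM (SD, n = 3). There Snrpn and Mest overlapped. Cdkn1c depends most on short transcripts: over its 2 transcripts of at least 1000 bases the TPM was 36.0 ± 2.42 without and 33.5 ± 0.862 with Activin A. Over such transcripts Mest was at 77.2 ± 4.47 TPM without and 37.3 ± 4.20 TPM with Activin A. Copg2 was at 27.3 ± 0.844 and 28.4 ± 2.38 TPM, and Snrpn at 34.4 ± 0.951 and 46.1 ± 2.14 TPM. Mest then stood above Cdkn1c in both groups, though narrowly with Activin A, and Copg2 below Snrpn without it. The places of these genes in the orders above thus depend on short transcripts.

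Genes outside the imprinted lists with the profile nearest to Mest were Net1, an exchange factor for RhoA, Efna5, an ephrin ligand, and Olfml3, a secreted matrix protein. Nearness was the distance between log2 CPM deviations from the gene's own mean over the 6 libraries, among 13629 tested protein-coding genes, and was 0.0710, 0.0954 and 0.124. Net1 had 267 ± 4.63 CPM without and 126 ± 5.05 CPM with Activin A (SD, n = 3 each), a level and a fold close to those of Mest. For Peg12 the nearest were the small heat shock gene Cryab, the xylosyltransferase gene Xylt1 and the LIM homeobox gene Lmx1b, at distances of 0.173, 0.199 and 0.228. Cryab had 33.8 ± 1.67 CPM without and 9.98 ± 1.16 CPM with Activin A (SD, n = 3 each). Over 6 libraries in 2 groups such a distance mainly ranks genes by the size of their change.

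Other genes of the same imprinted domains numbered 27 in the files, of which 23 were tested, 1 rose and 4 fell (21.7% called, against 29.2% of all genes), with a median log2 fold change of -0.01. Phlda2, a growth-restraining gene of the Cdkn1c domain, was 1.36-fold lower, with 14.8 ± 0.621 CPM without and 20.2 ± 1.29 CPM with Activin A (edgeR adjusted p = 0.00107). Cobl, a neighbour of Grb10, was 1.66-fold lower, with 4.16 ± 0.812 CPM without and 6.81 ± 0.809 CPM with Activin A (edgeR adjusted p = 0.00298). Both calls were lost with limma-trend, at adjusted p-values of 0.356 and 0.353 for Phlda2 and 0.104 and 0.121 for Cobl, and with the length offset (0.349 and 0.0864). The 1 rise, of Phactr2 beside Plagl1, was lost in 8 of 18 alternatives. It was lost when replicate 2 or 3 without Activin A (adjusted p = 0.108 and 0.0890) or replicate 1 or 2 with Activin A (0.0851 and 0.0725) was left out. DESeq2 (0.1365), limma-trend (0.415 and 0.419) and the length offset (0.306) ended it too. The falls numbered 2 when replicate 2 or 3 without Activin A or replicate 1 with it was left out, and 1 with limma-trend, while 7 genes rose once the GC and length trend was taken out. Within the chromosome 7 domain of Peg12, Ndn and Snrpn, Magel2, Mkrn3 and Ube3a had log2 fold changes of 0.40, 0.39 and 0.12 and did not pass (edgeR adjusted p = 0.164, 0.0719 and 0.256). Snhg14 and Atp10a of the same domain had log2 fold changes of -0.43 and -0.03 and did not pass either (edgeR adjusted p = 0.0728 and 0.825), while Snurf was called lower.

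Of 16 other tested genes known for paternal expression, 9 rose, 0 fell and 7 did not pass, with a median log2 fold change of 0.27. That is 56.25% called higher against 14.0% of all genes tested. This list and the others were chosen with earlier results of these data known, so the share is no finding on paternally expressed genes as a class. Genes of a shared cluster, such as Peg10 and Sgce, which both rose, are not separate events. With limma-trend 5 rose, and 1 fell with upper-quartile scaling and once the GC and length trend was taken out. The rises included the retrotransposon-derived Peg10, at 499 ± 7.87 against 77.6 ± 3.86 CPM, and the growth factor gene Igf2, at 537 ± 12.2 against 178 ± 8.47 CPM, without and with Activin A (edgeR adjusted p = 2.39e-13 and 1.66e-11). Of 14 tested genes known for maternal expression 4 rose, 3 fell and 7 did not pass (50% called, against 29.2% of all genes), with a median log2 fold change of 0.03. Ppp1r9a rose 1.63-fold and Zim1 2.35-fold, the call of Zim1 being lost with limma-trend (adjusted p = 0.0746 and 0.0897) and a transcript length offset (0.0522), while the calcitonin receptor gene Calcr was 26.3-fold and the non-coding H19 2.28-fold lower. The rises of the maternal list numbered 8 once the GC and length trend was taken out and 2 with limma-trend or a transcript length offset. The falls numbered 1 among protein-coding genes alone, a fit in which non-coding genes such as H19 are not tested.

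Of 8 tested factors that maintain imprints, 2 rose and 0 fell, which is 25% called and close to the 29.2% of all genes, with a median log2 fold change of 0.08. With a transcript length offset 1 rose and 1 fell. Uhrf1, which recruits DNMT1 to newly copied DNA, was 1.12-fold higher, with 339 ± 5.61 CPM without and 302 ± 13.5 CPM with Activin A (edgeR adjusted p = 0.0187). Dnmt1 was 1.12-fold higher, with 370 ± 3.97 CPM without and 332 ± 15.9 CPM with Activin A (edgeR adjusted p = 0.0246). Leaving out replicate 1, 2 or 3 of the group without Activin A ended both calls, with adjusted p-values of 0.0555, 0.0796 and 0.0904 for Uhrf1 and 0.0915, 0.105 and 0.0752 for Dnmt1. Upper-quartile scaling (0.0529 and 0.0684 for Uhrf1 and Dnmt1) and limma-trend ended them too. Without the library with Activin A replicate 3, 4 of the list rose. Zfp57 had 93.3 ± 3.32 CPM without and 92.1 ± 3.67 CPM with Activin A (edgeR adjusted p = 0.847). Of the 23 non-imprinted paralogs and partners 5 rose and 3 fell (34.8% called, close to the 29.2% of all genes), and the rises numbered 3 on leaving out any library without Activin A or replicate 1 with it, and 8 without replicate 3 with it. With limma-trend 1 rose and 0 fell, and 11 rose once the GC and length trend was taken out.

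**Figure D4:**
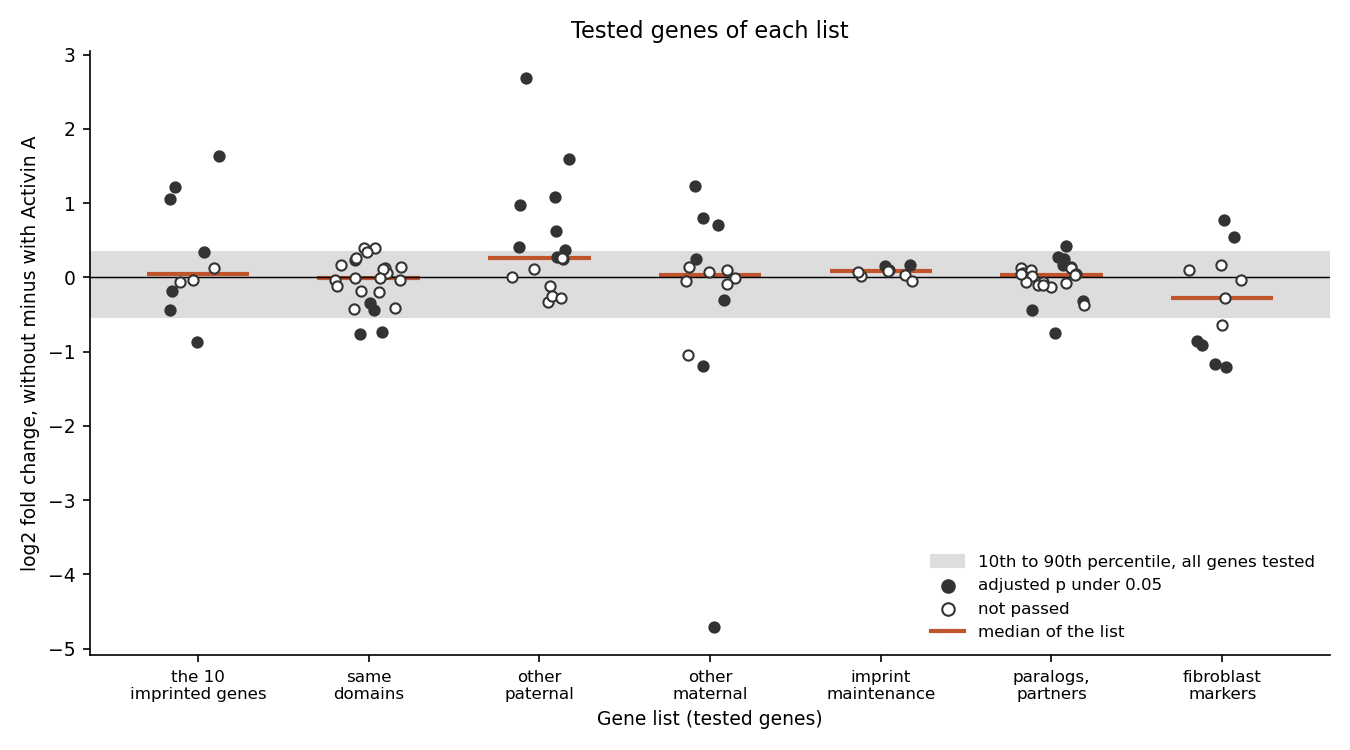
Log2 fold change, without minus with Activin A (vertical axis), of each tested gene of the 10 imprinted genes and 6 other lists; filled points passed the edgeR threshold of 0.05, the short line is the list's median and the grey band the 10th to 90th percentile of all genes tested. The other paternally expressed genes have the highest median, 0.27, with 9 of 16 called higher and 0 lower. All lists were chosen with earlier results of these data known.

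Markers of the fibroblast feeder cells are given beside these results because embryonic fibroblasts also express imprinted genes. All 12 were detected and 11 were tested, of which 2 rose and 4 fell (54.5% called, against 29.2% of all genes). The summed level was 673 to 689 CPM without and 484 to 545 CPM with Activin A, set by Col1a1 at 341 ± 6.39 against 234 ± 25.3 CPM and Col1a2 at 212 ± 2.86 against 124 ± 3.76 CPM, the 2 that rose. Col3a1, Dcn, Postn and Thy1 fell, with log2 fold changes of -1.21, -0.91, -0.86 and -1.17. The summed level was 208 to 210 CPM without and 293 to 297 CPM with Activin A for 8 neural markers. Of these, 7 were tested, of which 1 rose and 4 fell (71.4% called, against 29.2% of all genes). They did not share a direction: Nes, at the highest level, had a log2 fold change of -0.777, and Sox1, the 1 that rose, 0.604. For 4 trophoblast markers the summed level was 5.60 to 7.50 CPM without and 2.99 to 5.93 CPM with Activin A. Of the 2 that were tested, 1 rose (Gata3) and 0 fell. The part of these cells in the changes of the imprinted genes was not tested.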

How the data were processed

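The 6 libraries were grouped by title. Per the file headers, the deposited files hold salmon's columns, with estimated counts and TPM for 133618 transcripts. Salmon, DESeq2 and edgeR are named, with no version, in the submitters' processing notes. No source at hand states the authors' annotation, genome build or strand setting. Per the file headers, length and effective length stand beside each deposited estimated count and TPM.

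Transcripts were matched to GENCODE M21 on GRCm38 with the version ignored (133399 matched; the others, 0.131 to 0.149% of the reads, were left out). Estimated counts were summed per gene, rounded, filtered with filterByExpr (minimum count 10, minimum total 15), scaled by TMM and tested with edgeR 4.0.16 in R 4.3.3 (robust quasi-likelihood F test, Benjamini-Hochberg over 15448 genes, threshold 0.05), without minus with Activin A. The standard error is the size of the log2 fold change over the square root of F. Single transcripts were tested likewise. Libraries were made with a stranded mRNA kit, per the labels' protocols.

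Named genes were the 10 genes, up to 2 called genes per direction and list with the smallest p, and the 3 nearest profiles to Mest and Peg12; Snurf, Blcap, the FRAT and coat paralogs, other relatives, chromosome 7 neighbours and markers were named after their values were seen. The 10 genes and the lists were chosen with earlier results of these data known. The alternatives tried were upper-quartile and RLE scaling, DESeq2 1.42.0 and limma-trend (limma 3.58.1) on log2(TPM + 1) and log2(TPM + 0.1), no filter, 1 CPM in at least 3 libraries, a transcript length offset, protein-coding genes, the replicate number as a block, each library left out and both doubted libraries left out. Removal of the GC and length trend (mgcv 1.9.3), the Snrpn locus sum and the removal of transcripts in the Mest and Copg2 overlap were chosen after seeing the data. The edgeR test was checked on simulated data with the same dispersion for every gene. Changes were planted there only at log2 sizes well above that of Impact and not in genes of low level. The check thus does not cover small changes or low counts. Promoter windows are RefSeq's, on GRCm38.p6, for 8 of the 10 genes.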

Additional observations from a re-analysis of the deposited data

How the results depend on the processing

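Mest, Peg12, Plagl1, Snrpn and Nnat kept their direction and their call in all 18 alternative fits over all genes, but Mest lost its call on the few reads outside the Copg2 overlap. The genes called numbered 1559 and 1504 with limma-trend on log2(TPM + 1) and log2(TPM + 0.1) and 2072 with a transcript length offset, against 4505; the cause was not tested. Leaving out 1 library gave 3246 to 5689 genes, and 4 to 5 imprinted genes higher and 2 to 3 lower. With the replicate number as a block 4422 genes were called, and 4 imprinted genes higher and 3 lower; Copg1 and Eif2ak4 were then at 0.0658 and 0.0532. Same-numbered libraries had deviations that correlated at -0.025, -0.052 and -0.057, so the numbers are not taken to pair them. Of 39997 transcripts 1084 were called, 56 with the block and 222 to 970 on leaving out 1 library. With the block Mest-211, Peg12-201, Snrpn-201 and Nnat-202 lost their calls, at adjusted p-values of 0.0580, 0.0739, 0.135 and 0.110; leaving out 1 library kept those of Mest-211 and Peg12-201. Genes that did not pass changed sign: Copg2 had a log2 fold change of 0.20 and 0.21 with limma-trend at the pseudocounts 1 and 0.1, 0.18 with the length offset and 0.53 on transcripts outside the Mest overlap. The last rests on 3.80 to 86.7 reads per library and did not pass (standard error 0.79, edgeR adjusted p = 0.691). Over transcripts of at least 1000 bases Copg2 had 27.3 ± 0.844 TPM without and 28.4 ± 2.38 TPM with Activin A. Grb10 had log2 fold changes of 0.32 and 0.32 with limma-trend and 0.30 with the length offset. On leaving out 1 library Frat2 ranged over -0.0414 to 0.290 and Blcap over -0.0301 to 0.0226. Blcap had 0.0041 with no filter and 0.0656 after removal of the GC and length trend. Plagl1, on 14 to 78 reads per library, is the gene most limited by depth.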
